A study of Drosophila melanogaster with 22 samples.

Results

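The X chromosome held 35069 of the 181862 open chromatin peaks that 11 FAIRE samples of Drosophila melanogaster listed, and every peak placed on X was taken as a member. The other large arms, 2L, 2R, 3L and 3R, held 145051 peaks and served as the autosomal comparison. In FAIRE-seq, chromatin is fixed, sheared and extracted with phenol and chloroform, and DNA that was not crosslinked to protein is sequenced, so its peaks mark open chromatin. The samples were whole embryos of the OregonR strain aged 2-4 h, 6-8 h and 16-18 h after egg laying, and tissues dissected from y;cn,bw,sp flies. Larvae of the third instar gave 4 discs (T3 leg, haltere, wing and eye-antennal) and the larval central nervous system, or CNS. Pharate adults of stage P14 gave 3 appendages (T3 leg, haltere and wing). Each sample was 1 list of scored peaks, although the labels name 2 or 3 replicates behind it. No value below therefore carries a spread between replicates and no test between samples was possible. Intervals of shares are 95% binomial ones by the exact Clopper-Pearson method and cover counting error only. Strain, age and tissue cannot be told apart between embryos and the other samples.

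In Drosophila, females carry a pair of X chromosomes and males a single one. The embryo counts its X chromosomes early, through X-linked genes such as sisA and run that switch on Sxl in females. In males the MSL complex, built on the roX RNAs, coats the X, acetylates histone H4 there and raises transcription, and this dosage compensation is set up during embryogenesis. The labels give no sex for the FAIRE samples and describe both genomic inputs as DNA of adult female virgins. The copy number of X in each sample was not measured here.

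Open chromatin on X was sparse in the early embryo and dense in the late embryo and the discs. X had 13.6% of the peaks at 2-4 h (13.0 to 14.2; 1779 of 13091), 16.1% at 6-8 h (15.4 to 16.8; 1789 of 11096) and 21.0% at 16-18 h (20.3 to 21.7; 2837 of 13513). For comparison, X made up 18.6% of the length of the 6 arms, taking each arm to its last peak. The first 2 embryo stages lay below that share of length and the last above it, with intervals that did not meet. In the better-scoring 50% of each list the 6-8 h share was 18.4%, about that of length, and those of 2-4 h and 16-18 h were 17.2% and 22.5%. The bases under peaks gave the same order, with 13.1%, 15.3% and 20.8% of the covered bases on X.

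Appendage discs had the highest X shares in whole lists, led by the haltere disc with 22.4% (21.8 to 23.0, from 4034 peaks). The wing disc had 21.4% (20.7 to 22.1; 3057 peaks) and the leg disc 21.3% (20.7 to 21.9; 3859 peaks). The eye-antennal disc had 20.8% (20.01 to 21.6; 2075 peaks). The larval CNS, with 18.7% (17.9 to 19.5; 1869 peaks), stood close to the X share of length. So did the pharate appendages, with 18.1% for the leg (17.6 to 18.6; 3835 peaks), 19.2% for the haltere (18.7 to 19.6; 5825 peaks) and 19.1% for the wing (18.6 to 19.6; 4110 peaks). Ordered by share, the late embryo, eye-antennal disc, wing disc and leg disc had overlapping intervals.

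**Figure D1:**
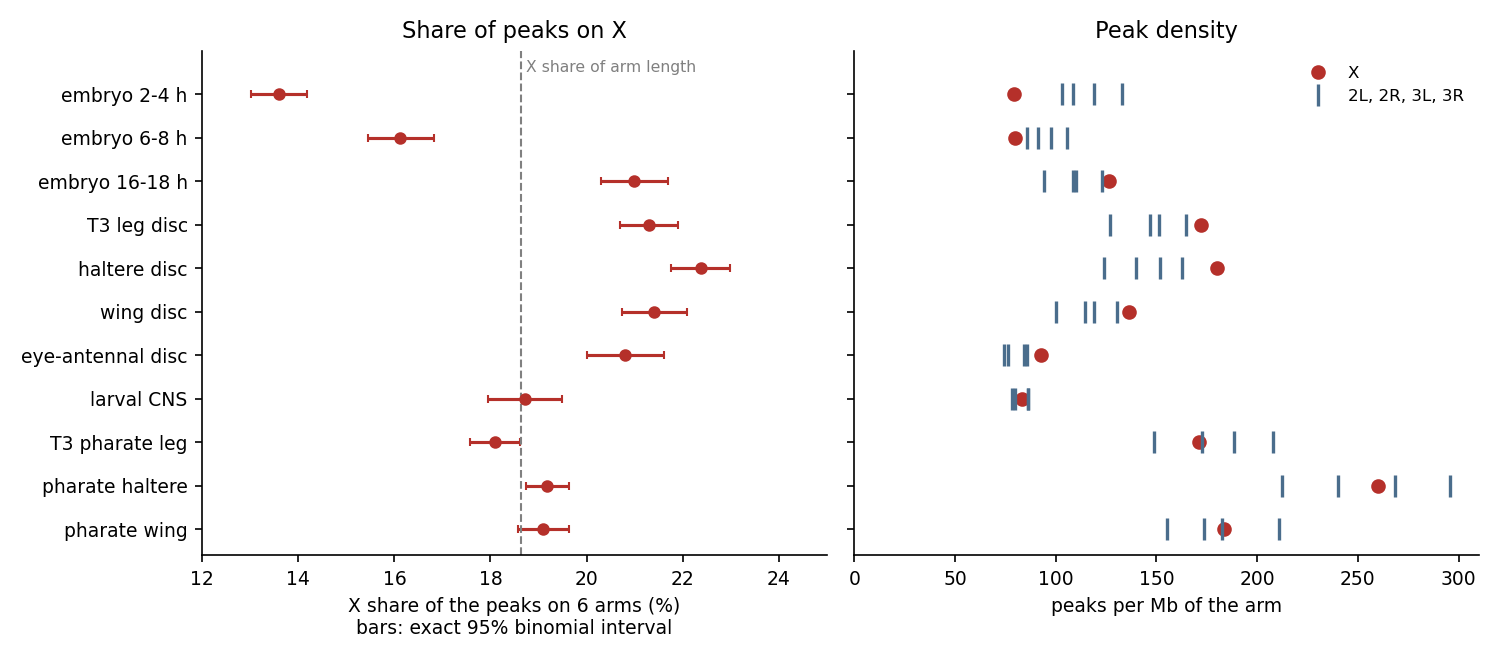
The left panel plots the X share of peaks (%) in each of the 11 samples with its exact 95% binomial interval, beside the X share of arm length (dashed line, 18.6%), and the right panel the peaks per Mb on X (points) and on 2L, 2R, 3L and 3R (ticks). Embryos at 2-4 h and 6-8 h lie left of the dashed line, at 13.6% and 16.1%, and X has the highest density of the 5 arms at 16-18 h and in the 4 discs.

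Per Mb of chromosome, X had 79.4 peaks at 2-4 h, against 103 to 133 on the 4 large autosomal arms, and 79.8 at 6-8 h, against 85.6 to 105.5 (85.6 on 2L and 105.5 on 2R). At both stages X was the least dense of the 5 large arms. At 16-18 h it was the most dense, with 127 peaks per Mb, against 93.9 to 123. X was also the most dense of these arms in the leg, haltere, wing and eye-antennal discs. The ratio of X density to that of the 4 autosomal arms together was 0.686 (0.652 to 0.722) at 2-4 h, 0.841 (0.799 to 0.884) at 6-8 h and 1.16 (1.12 to 1.21) at 16-18 h. It was 1.16 to 1.25 over the 4 discs, 1.01 (0.961 to 1.06) in the larval CNS and 0.954 to 1.02 over the pharate appendages.

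The step between the first pair of stages differed from the step to the last. Between 2-4 h and 6-8 h the number of X peaks was nearly level (1789 at 6-8 h against 1779 at 2-4 h), while the autosomal arms had 9168 against 11168, a ratio of 0.821. Between 6-8 h and 16-18 h X had 1.59 times as many peaks at the later stage, against 1.14 times as many on the autosomal arms (10494 at 16-18 h, 9168 at 6-8 h). The autosomal arms ran from 1.098 times on 2L to 1.19 times on 3L in that step. The number of reads behind each list was not known, so a list's length also carries depth and threshold. Shares and ratios within a list share that list's threshold, but X is sampled less deeply than the autosomes wherever males are present, and its part in these values was not tested.

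Score ranks the peaks of a list by the authors' own measure, and the X share varied most with it in embryos of 2-4 h and 6-8 h. At 2-4 h, X held 5.12% of the lowest-scoring quintile, or 20%, of the peaks (4.31 to 6.03; 134 of 2618), then 11.9%, 16.2% and 18.9%, and 15.8% of the highest quintile (14.4 to 17.3). At 6-8 h the 5 shares were 10.5%, 15.0%, 19.3%, 18.8% and 17.1%. At 16-18 h they were 17.1%, 20.3%, 22.5%, 23.5% and 21.6%. In embryos of 2-4 h and 6-8 h the share was furthest below that of arm length among the weakest peaks, while the upper 2 quintiles had between 15.8% and 18.9%.

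X had 3.09 times as many peaks in the highest quintile as in the lowest at 2-4 h (interval 2.54 to 3.78), 1.63 times at 6-8 h (1.38 to 1.92) and 1.26 times at 16-18 h (1.12 to 1.43). On 2L, 2R, 3L and 3R the same number ran from 0.778 to 1.04 over the 3 embryo stages. In the 8 larval and pharate samples the ratio for X ran from 0.849 in the larval CNS to 1.07 (0.973 to 1.19) in the pharate leg, whose interval overlapped that of 16-18 h. With 10 score classes it was 1.21 at 16-18 h and 1.22 in the pharate leg. At 2-4 h, 25 X peaks (1.41%) had a score under 5, against 708 autosomal peaks (6.34%). At 16-18 h these shares were 1.09% on X and 1.43% on the autosomal arms.

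**Figure D2:**
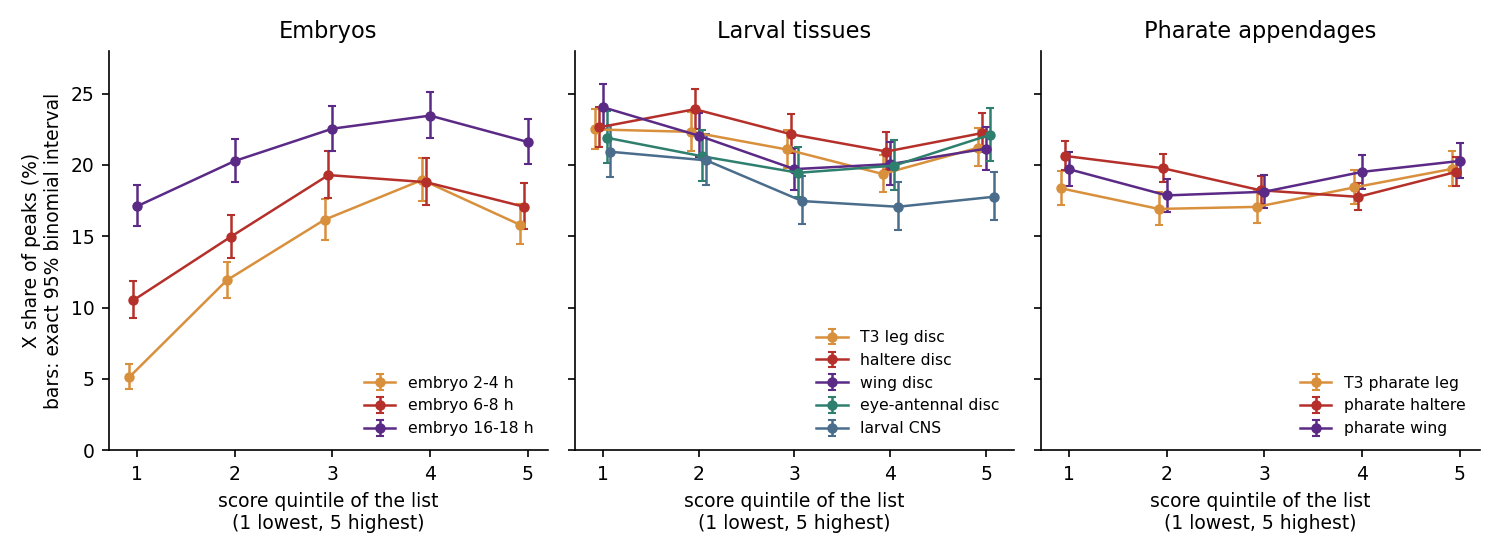
X share of peaks (%) in each quintile of a list by score, from the lowest (1) to the highest (5), with exact 95% binomial intervals, for embryos, larval tissues and pharate appendages. The lines of 2-4 h and 6-8 h start at 5.12% and 10.5% in the lowest quintile, peak in quintile 4 (18.9%) and quintile 3 (19.3%) and end at 15.8% and 17.1%. The line of 16-18 h starts at 17.1%, below all larval and pharate lines (lowest 18.4%, pharate leg). In quintiles 3 and 4 it has 22.5% and 23.5%, above all of them (highest 22.2% and 20.9%, haltere disc).

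Correspondingly, the median score of an X peak stood above that of an autosomal peak in early embryos, at 35.9 against 21.4 at 2-4 h and 26.2 against 21.5 at 6-8 h. At 16-18 h the medians were 21.1 on X and 19.4 on the autosomal arms, and in the leg disc 12.1 and 13.0. At the very top the order differed. Of the 100 best-scoring peaks of a list, 6 lay on X at 2-4 h, 14 at 6-8 h and 21 at 16-18 h, and 19 to 24 in each larval and pharate sample. Median peak widths were 377 bp on X and 391 bp on the autosomal arms at 2-4 h, 358 and 383.5 bp at 6-8 h, and 355 and 358 bp at 16-18 h. X peaks were the wider ones in the haltere disc (440.5 and 423 bp) and the pharate haltere (433 and 416 bp).

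Fewer X peaks than autosomal peaks disappeared from the list of a later embryo stage. Of the X peaks at 2-4 h, 30.1% (27.9 to 32.3) had no overlapping peak at 6-8 h, against 41.4% on the autosomal arms (40.5 to 42.7 over the 4 arms) and 39.8% of all peaks. Of the X peaks at 6-8 h, 29.4% (27.3 to 31.6) had none at 16-18 h, against 36.5% on the autosomal arms (33.2 to 39.1) and 35.3% of all peaks. Over the whole span from 2-4 h to 16-18 h the share was 46.1% on X (43.8 to 48.5), against 57.4% on the autosomal arms (56.4 to 58.9) and 55.7% of all peaks. The differences of X minus autosomal arms were -11.3 (-13.6 to -8.98), -7.08 (-9.37 to -4.72) and -11.2 (-13.7 to -8.70) percentage points.

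X had few weak peaks at these stages, and weak peaks were found again less often on X and on the autosomal arms, so the same comparison was made within score quintiles. In the lowest quintile at 2-4 h, 59.0% of 134 X peaks were absent at 6-8 h, against 75.4% of autosomal peaks. In quintiles 2 and 3 the difference was -1.03 and 1.22 points, with intervals that held 0. In quintile 4 it was -5.55 points (-9.11 to -1.60), and in the highest quintile -2.31 points (-5.07 to 1.07). Between 6-8 h and 16-18 h the differences were -15.2, -5.23, 0.754, -6.49 and -3.22 points from the lowest quintile up. Their intervals left out 0 in the lowest quintile and in quintile 4 only. Over the whole span they were -16.8, -9.00, -4.03, -1.38 and -8.08 points. There the intervals left out 0 in the lowest quintile, in quintile 2 and in the highest (-12.4 to -3.37). Counting only the better-scoring 50% of the peaks of the earlier stage, the differences shrank to -3.10 points between 2-4 h and 6-8 h, -3.38 between 6-8 h and 16-18 h, and -3.60 over the whole span. With 11096 best-scoring peaks from each list the first of these was -6.05 points.

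More X peaks than autosomal peaks were new at 16-18 h. Of the 2837 X peaks of that stage, 55.4% (53.6 to 57.3) had no peak at 6-8 h, against 43.9% on the autosomal arms (42.0 to 45.9 over the 4 arms) and 46.4% of all peaks. Against 2-4 h, 66.3% of them (64.6 to 68.1) were new, against 54.2% on the autosomal arms (52.4 to 56.6) and 56.8% of all peaks. The differences were 11.5 points (9.39 to 13.5) and 12.1 points (10.1 to 14.1). These shares are not independent of the rise in peak number from 6-8 h, which was 1.59 times on X and 1.14 times on the autosomal arms. The regions of 16-18 h alone and the counts per interval given below rest on the same rise. At 6-8 h, 31.2% of X peaks had no peak at 2-4 h, against 29.2% on the autosomal arms and 29.6% of all peaks. The difference was 2.06 points, with an interval that held 0 (-0.25 to 4.43). It was -0.82 with an equal number of peaks from each list and 4.55 in the better-scoring 50% of the peaks counted. Within score quintiles at 6-8 h, X was higher in each. From the lowest quintile up, the differences were 10.5 (3.79 to 16.7), 7.42 (1.58 to 13.2), 4.93 (-0.019 to 10.1), 5.06 (1.55 to 9.08) and 0.866 points (-0.239 to 2.81).

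The late gain on X was present at every score level. From the lowest to the highest quintile at 16-18 h, 78.4%, 73.9%, 67.8%, 47.0% and 16.1% of X peaks had no peak at 6-8 h, against 66.7%, 61.0%, 51.0%, 31.3% and 8.79% of autosomal peaks. Within each quintile the interval of the difference lay above 0, from 7.30 points (4.26 to 10.7) in the highest quintile to 16.8 points (12.4 to 21.0) in quintile 3. New X peaks were weaker than the rest, with a median score of 16.1, against 35.8 for X peaks already present at 6-8 h.

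**Figure D3:**
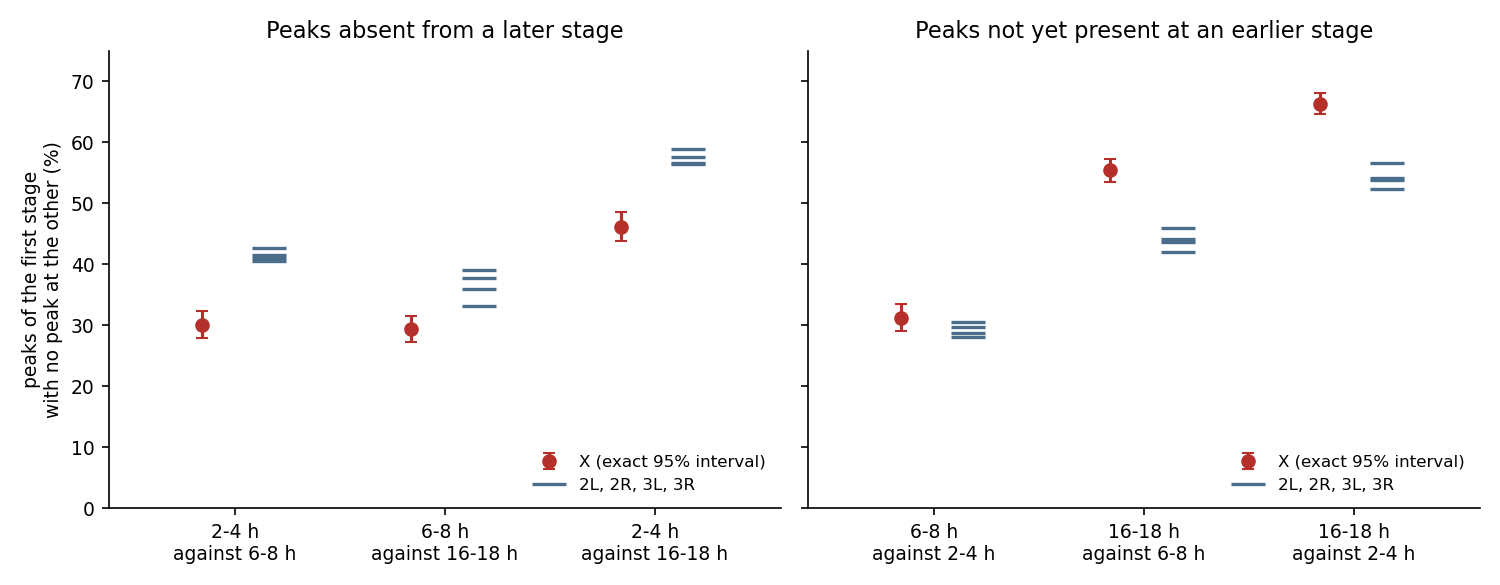
Share of the peaks of the first-named embryo stage (%) with no overlapping peak at the other stage, for X (points with exact 95% binomial intervals) and for 2L, 2R, 3L and 3R (a dash each). X lies below all 4 arms in each comparison with a later stage, and at 16-18 h, with 55.4% and 66.3% new peaks, above all 4.

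Embryo peaks that overlapped were merged into 21739 regions, of which 3769 (17.3%, 16.8 to 17.8) lay on X. The X share ran from 9.68% (8.85 to 10.6; 451 of 4658) of regions with a peak at 2-4 h alone, through 12.3% (10.6 to 14.2; 159 of 1292) at 6-8 h alone, to 25.99% (24.9 to 27.1; 1487 of 5722) at 16-18 h alone. In the better-scoring 50% of each list the shares of 2-4 h alone and 6-8 h alone were 15.1% and 15.3%. Regions of all 3 stages had 16.6% (15.6 to 17.6; 844 of 5089) on X. Of all X regions in embryos, 39.5% were of 16-18 h alone and 12.0% of 2-4 h alone, whereas on the autosomal arms both classes held 23.5%. A peak that first appears in whole embryos may mark chromatin that opened or a cell type that became more numerous, and these cannot be told apart.

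**Figure D4:**
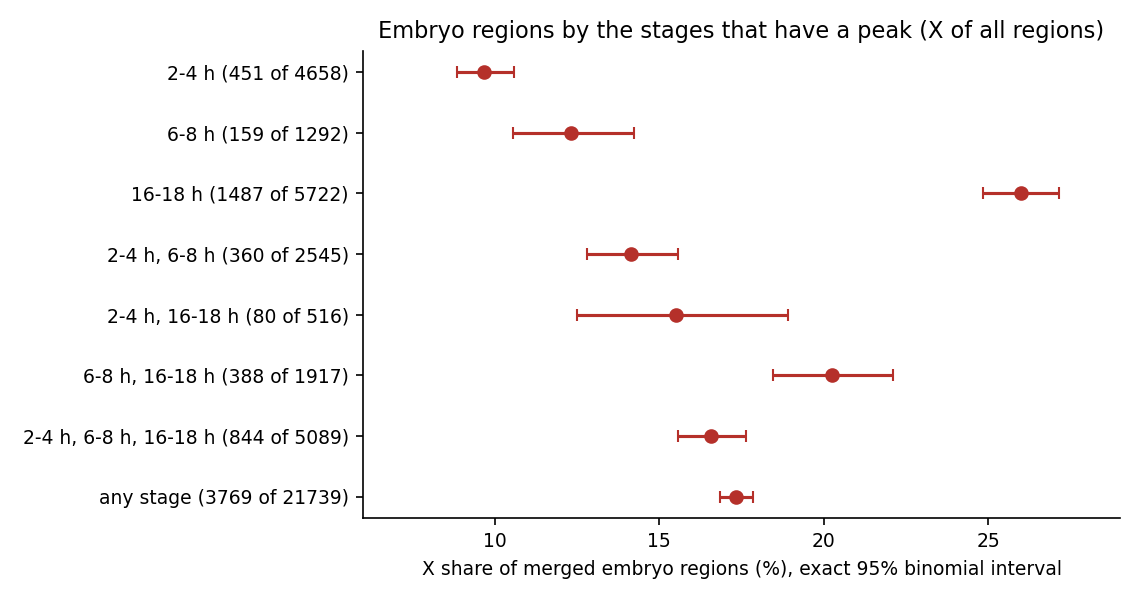
X share (%) of merged embryo regions in each class of stages with a peak, with exact 95% binomial intervals and, in brackets, the X regions of all regions in the class. The classes run from 9.68% for regions of 2-4 h alone to 25.99% for regions of 16-18 h alone, with 17.3% over all embryo regions; in the better-scoring 50% of each list the first is 15.1%.

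The strongest X regions of each class are given with the coordinates of genome build dm3, counted from 1. No annotation of that build was used here, so whether they lie in exons, introns or between genes is not stated. Regions of several stages were ordered by their best score in any list. Of regions of all embryo stages, the first was then chrX:12609935-12610467, with scores of 719 at 2-4 h, 519 at 6-8 h and 285 at 16-18 h. It had a peak in each of the 11 samples, among them the pharate leg (677) and the larval CNS (68.5). The next, chrX:12548124-12548801, had scores of 256 at 2-4 h, 632 at 6-8 h and 663 at 16-18 h, and held the best-scoring X peak of the last 2 of these lists. The score scale may not be the same from list to list, so these values place a region within its own list only.

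Of 2-4 h alone, the strongest X regions were chrX:15540599-15541639 (score 352) and chrX:8547845-8549058 (325), and neither had a peak in any other of the 11 samples. Of 6-8 h alone among embryo stages they were chrX:15553058-15553462 (99.7), again without a peak in any other sample, and chrX:18759099-18759528 (75.1). Of 16-18 h alone among embryo stages they were chrX:7590597-7591060 (169.9) and chrX:21112961-21113374 (148). Both of these, and chrX:18759099-18759528, merged with a peak of some larval or pharate sample. Regions of the first 2 stages without the last were led by chrX:11040479-11041134, with a score of 451 at 2-4 h and 107 at 6-8 h. The other leading region of that class was chrX:18194254-18195467, with 399 and 113. Regions of the last 2 stages without the first were led by chrX:6596486-6597146, with 72.5 at 6-8 h and 362 at 16-18 h, and chrX:8348915-8349480, with 318 and 219.95. Regions of the early and late stages without the middle one were led by chrX:10700800-10701160 (103 at 2-4 h, 15.4 at 16-18 h) and chrX:5257970-5258579 (24.0 and 89.7). Outside embryos, the strongest X peak of the leg disc was chrX:1504945-1506547 (413, the second best of its list), and the merged region there had scores of 310 (haltere disc) and 245 (wing disc). The next region of all 3 appendage discs, chrX:19677401-19678021, had scores of 403, 324 and 233 in the leg, haltere and wing discs. Of X regions of a single appendage disc, the best-scoring one of the leg disc was chrX:17710660-17711400 (110), in the highest quintile of that list. That of the haltere disc was chrX:6556573-6556873 (16.6) and that of the wing disc chrX:6432940-6433306 (21.5), each in quintile 4 of its own list. The share of regions on X was 25.3% (23.7 to 27.1; 646 of 2549) for the haltere disc without the other appendage discs, 18.8% (17.4 to 20.4; 510 of 2709) for the leg disc and 16.1% (12.8 to 19.8; 73 of 454) for the wing disc. Over all merged regions of the appendage discs it was 21.5% (21.0 to 22.1, 4625 of 21489). The best-scoring X region of the pharate wing without the other pharate appendages was chrX:6433410-6433877 (355), that of the leg chrX:655787-656215 (128) and that of the haltere chrX:2857859-2858235 (115). Regions of all 3 pharate appendages were led by chrX:2030228-2032882 (708, 530.1 and 505 for leg, haltere and wing) and chrX:530609-531495 (693, 486 and 511).

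The widest X peak of the embryo was 2108 bp at 6-8 h, and the widest of all samples 4870 bp in the pharate haltere, at chrX:19413250-19418119.

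The late gain ran along nearly the whole chromosome. X was divided into 22 complete intervals of 1 Mb, and 21 of them had more peaks at 16-18 h than at 6-8 h, with a median difference of 45 peaks. On the 4 autosomal arms 68 of 94 intervals (72.3%) had more, with a median difference of 15. The interval of X with fewer was the one at the end away from the centromere, chrX:1-1000000, with 61 peaks at 16-18 h against 68 at 6-8 h. The interval with most peaks at 16-18 h was chrX:12000001-13000000, with 78 at 2-4 h, 93 at 6-8 h and 200 at 16-18 h. Between 2-4 h and 6-8 h, 9 of the 22 X intervals had more peaks at the later stage and 11 fewer, while 87 of the 94 autosomal intervals had fewer.

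**Figure D5:**
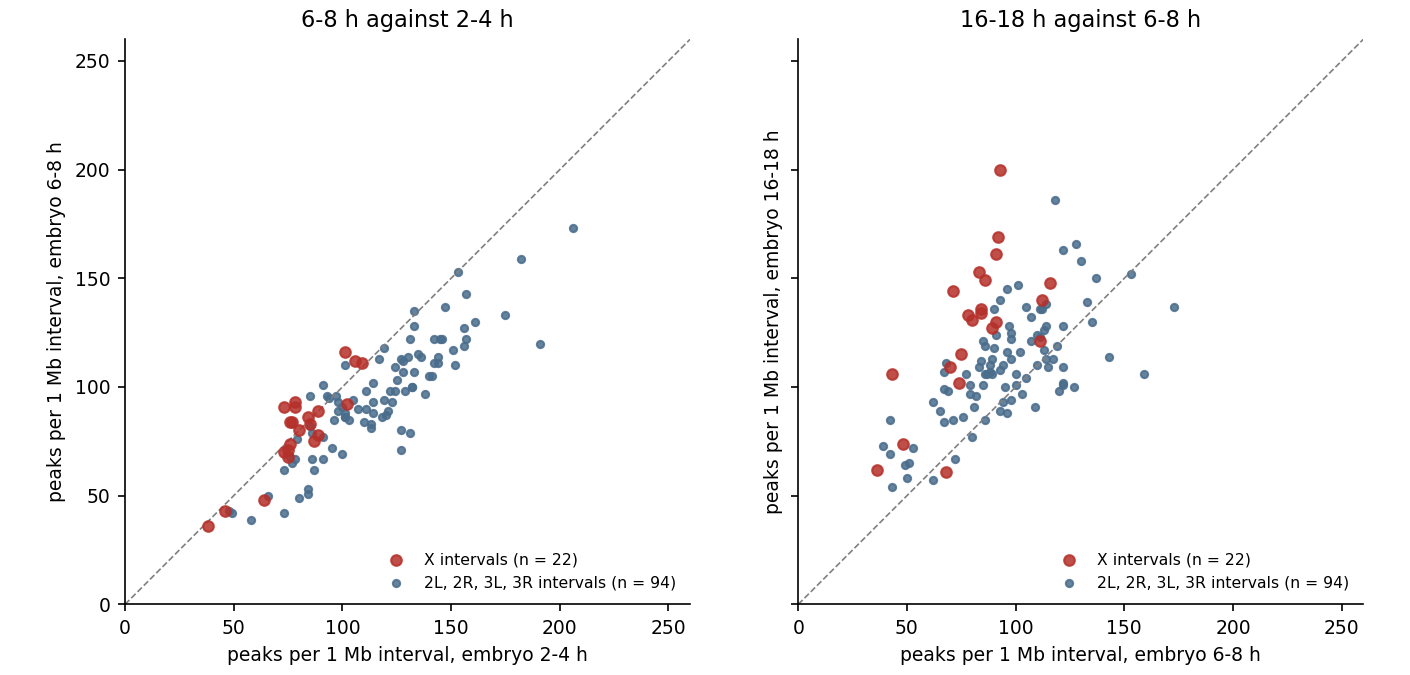
Peaks per complete 1 Mb interval at a later embryo stage (vertical axis) against an earlier one (horizontal axis), for the 22 intervals of X and the 94 of 2L, 2R, 3L and 3R, with equal numbers on the dashed line. At 6-8 h most autosomal intervals lie below the line and X lies along it, and at 16-18 h 21 of 22 X intervals lie above it.

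Smaller intervals of 100 kb located the largest late gains in X peaks of embryos. In chrX:5000001-5100000, embryos had 0 peaks at 2-4 h, 4 at 6-8 h and 20 at 16-18 h, and no larval or pharate sample had more than 4. In chrX:6300001-6400000 the embryo counts were 0, 1 and 19, again with at most 4 in any other sample. In chrX:12700001-12800000 they were 7, 4 and 27, with 5 to 15 peaks in the larval and pharate samples. Loss was smaller, the furthest being chrX:2300001-2400000 with 19, 11 and 7 peaks over the 3 stages, chrX:10700001-10800000 with 21, 15 and 10, and chrX:400001-500000 with 19, 14 and 10, which tied with chrX:6900001-7000000 (15, 6 and 6). Of 225 such intervals, 170 had more peaks at 16-18 h than at 2-4 h, 41 fewer and 14 the same number.

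Summed over the 11 lists, in which the longest lists weigh most, the interval with most peaks was chrX:19500001-19600000. It had 46 to 59 peaks in the leg, haltere and wing discs and 40 to 69 in the pharate appendages, but 13 to 15 in embryos and 16 and 17 in the eye-antennal disc and CNS. Embryos had more in other intervals, such as its neighbour chrX:19600001-19700000 with 28, 29 and 24 over the 3 stages. The next were the neighbours chrX:2000001-2100000 and chrX:2100001-2200000. In the first of these, embryos had 16 to 21 peaks, appendage discs 23 to 39 and pharate appendages 46 to 69. These intervals were chosen by their summed counts, so their high totals are a description.

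X regions new at 16-18 h were found less often than autosomal ones over the later tissues together, but not in each of them. Merging all 11 lists gave 9540 X regions, of which 1408 had a peak at 16-18 h and at no earlier stage. Of these, 43.6% (41.0 to 46.2) had a peak in some larval or pharate sample, against 49.7% (48.1 to 51.3) of 3910 autosomal regions of that kind. In pharate appendages the shares were 29.7% (27.3 to 32.2) and 38.8% (37.2 to 40.3), and in appendage discs 22.8% (20.6 to 25.1) and 24.6% (23.3 to 26.01), where the intervals overlapped. The haltere disc alone was level, with 20.7% on X and 20.6% on the autosomal arms, and the eye-antennal disc ran the other way, with 17.3% (15.3 to 19.3) and 14.9% (13.8 to 16.1). X regions of 2-4 h and no later embryo stage were found in appendage discs in 44.0% of 405 cases (39.1 to 48.9), against 35.3% (33.7 to 36.8) of autosomal ones. In pharate appendages they were found less often, in 49.9% (44.9 to 54.9) against 59.3% (57.7 to 60.9), and in any larval or pharate sample in 59.8% against 65.3%. Regions of every embryo stage were found later in 93.3% of cases on X and 93.3% on the autosomal arms. Regions were not matched for score.

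X peaks of 2-4 h and 6-8 h were found in larval tissue more often than autosomal ones. At 2-4 h, 63.0% of X peaks (60.7 to 65.3) overlapped a wing disc peak, against 46.8% of autosomal peaks, and 44.7% against 34.0% overlapped a larval CNS peak. At 6-8 h the wing disc held 62.5% of X peaks, against 53.3% of autosomal peaks. At 16-18 h the order turned, with 41.0% (39.2 to 42.9) on X against 45.1% on the autosomal arms. Wing disc peaks are denser on X, and early embryos had few weak X peaks, and the part of either in these shares was not tested.

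Between disc and pharate stages the shared part of X depended on which list was counted. Of the X peaks of the discs, 55.3% (leg), 72.2% (haltere disc) and 65.3% (wing disc) overlapped a peak of the pharate appendage, against 58.2%, 71.6% and 64.6% of the autosomal peaks. Of the pharate X peaks, 56.5% (leg), 50.6% (pharate haltere) and 48.6% (pharate wing) overlapped a disc peak, against 47.6%, 40.9% and 41.2% of the autosomal peaks. The density on X over that on the autosomal arms was 1.17 to 1.25 in these discs and 0.954 to 1.02 in the pharate appendages. The part of density in these shares was not tested. Regions of all 3 appendage discs had 21.7% on X (20.9 to 22.4; 2514 regions), close to the 21.5% of all merged disc regions. Regions of all 3 pharate appendages had 19.0% (18.3 to 19.7; 2387 regions), close to the 18.5% (18.1 to 18.9) of all merged pharate regions. Of the regions of all 11 samples, 414 of 1983 lay on X (20.9%, 19.1 to 22.7), against 19.0% (18.6 to 19.3) of the 50319 regions merged over the 11 lists.

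Transcript levels of X-linked genes were set beside the open chromatin. They were deposited as FPKM, a count of sequenced fragments scaled for transcript length and library size, with 1 value per gene and stage. Chromosomes were found for 13300 of 13686 genes, of which 2130 were X-linked. Among genes of at least 5 FPKM, the median level of X-linked genes was 143 FPKM at 2-4 h, against 159 for genes of the 4 autosomal arms, then 133 against 136 at 6-8 h and 84.4 against 88.4 at 16-18 h. The ratios of these medians were 0.901, 0.972 and 0.955. They leave out genes under 5 FPKM, and a larger share of X-linked genes passed. It was 58.0% against 52.9% of autosomal genes at 2-4 h, 62.3% against 58.0% at 6-8 h and 73.5% against 72.0% at 16-18 h. At least 100 FPKM was reached by 33.9% against 32.4%, 35.9% against 34.4% and 32.3% against 33.1%. The medians of the single autosomal arms ran from 153 to 167 at 2-4 h and from 83.7 to 94.1 at 16-18 h, so X lay below their range at the first stage and inside it at the last. At 6-8 h the arms ran from 132.6 to 145 and X, at 132.56, lay just below them.

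X-linked genes did not outnumber autosomal ones among the genes that were higher late. At 16-18 h, 508 of 1638 X-linked genes (31.0%, 28.8 to 33.3) were at least 2-fold higher than at 6-8 h, against 35.4% on the autosomal arms (34.4 to 36.5) and 34.7% of all genes tested. Another 542 (33.1%) were at least 2-fold lower, against 30.7% on the autosomal arms and 31.1% of all genes. Over the span from 2-4 h to 16-18 h, 632 of 1646 X-linked genes (38.4%, 36.0 to 40.8) were higher, against 41.2% of all genes, and 582 (35.4%) lower, against 33.5%. Between 2-4 h and 6-8 h the shares were 26.2% higher (362 genes) and 19.0% lower (262 genes), against 25.9% and 18.9% of all genes. The median log2 ratio at 16-18 h over 6-8 h was -0.27 for X-linked genes and -0.12 for genes of the autosomal arms. The 3 comparisons share their stages, and peaks were not assigned to genes. In whole embryos, fewer cells that express a gene and less RNA per cell cannot be told apart.

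Most genes of X counting and dosage compensation with a level to compare were lower at 16-18 h than at 6-8 h. The X-counting gene sisA was listed at 733 FPKM at 2-4 h, 204 at 6-8 h and 4.33 at 16-18 h, and run, which also acts in segmentation, at 312, 125 and 28.4. Sxl, the switch gene of female development, was listed at 686, 854 and 440. Of 5 genes of this list with a level to compare, 4 were at least 2-fold lower at 16-18 h than at 6-8 h and 0 higher, against 31.1% lower and 34.7% higher of all genes. The non-coding RNA gene roX1 was listed at 588, 1605 and 500.2 FPKM, and roX2 at 2.47, 84.4 and 100.1. The X-linked acetyltransferase gene mof was listed at 250.2, 181 and 55.2, and msl-2, the autosomal gene for the male-specific subunit, at 192, 166 and 37.5. Of 6 dosage compensation genes, X-linked or not, with a level to compare, 5 were lower at 16-18 h than at 6-8 h and 0 higher, and roX2 was within 2-fold. The gene msl-3 was listed at 0 in all embryo stages and the appendage gene sd at 0 in the wing disc, where it is needed, so a value of 0 in these tables may be a failed estimate.

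Of 13 X-linked genes of segmentation and patterning with a level to compare, 8 were at least 2-fold lower at 16-18 h than at 6-8 h and 0 higher, against 31.1% lower and 34.7% higher of all genes. Over the span from 2-4 h to 16-18 h, 7 of 14 were lower and 2 higher, against 33.5% and 41.2% of all genes. The gap gene gt was listed at 531 FPKM at 2-4 h, 72.4 at 6-8 h and 6.51 at 16-18 h. The Notch receptor gene N was listed at 166, 540.3 and 65.4. The cellularisation gene nullo was listed at 425 at 2-4 h and at 0 afterwards, and the BMP modulator gene tsg at 313, 5.04 and 0.

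Most X-linked genes of neurons and cuticle with a level to compare were higher at 16-18 h than at 6-8 h, against 34.7% of all genes. Of 5 neural genes with a level to compare, 4 were higher at 16-18 h than at 6-8 h and 1, the RNA-binding protein gene elav, lower (208 against 469). Its relative fne was listed at 0 at 2-4 h, 29.5 at 6-8 h and 399 at 16-18 h, and Appl, the amyloid precursor-like gene, at 2.76, 9.70 and 367. Of 7 genes of cuticle, pigment and bristles, 5 were higher at 16-18 h and 0 lower, while sn (328 against 556) and g (63.8 against 34.6) were within 2-fold. Among those higher were f, which shapes actin bundles of bristles (2.69, 9.75 and 125), and the eye pigment transporter gene w (8.71, 31.8 and 84.6). Of 10 appendage genes, 9 were already higher at 6-8 h than at 2-4 h and 0 lower, against 25.9% and 18.9% of all genes, among them disco-r (0.566, 47.8 and 103) and Sp1 (1.24, 63.4 and 35.0). Outside these lists, the troponin I gene wupA was among the X-linked genes furthest higher over the whole span, with 6440 at 16-18 h against 2.89 at 2-4 h.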

How the data were processed

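The series held 22 samples, of which 11 FAIRE peak lists and, as a second readout, 9 RNA columns were used. The 2 genomic inputs had no values used here. The authors deposited for each FAIRE sample a list of peaks with a score, whose scale, threshold and control, and the way replicates were combined, are not given in the sources used here. The submitters' processing notes name CASAVA 1.7, Bowtie 0.12.3, MACS2, TopHat 1.1.4, Cuffdiff and the build dm3. FPKM values were deposited with 1 column per stage or tissue, per the file headers.

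Members were the peaks on chrX. Arms ran to the last peak of any list. Peaks overlapped at 1 bp or more, and overlapping peaks were merged into regions. Quintiles were taken by score within a list, over 6 arms. Differences of shares carry Newcombe 95% intervals (statsmodels 0.14.6), and shares exact ones (scipy 1.17.1). All cover counting error only, and peaks are not replicates. Gene ratios were log2((FPKM + 1)/(FPKM + 1)) for genes of at least 5 FPKM in either stage, counted at 2-fold. Names occurring more than once (248 entries) were left out. Chromosomes of genes came from a RefSeq table of another assembly, by symbol (9978 genes) or by a synonym, and 386 genes were not matched. Depth was not known. Functions were tested on simulated peaks.

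Regions named were the 2 best-scoring of each embryo class, the 100 kb intervals with most peaks or the largest embryo gain or loss, and the widest peaks. Genes were members of fixed lists or among the 5 furthest apart, and not all are described. Members, lists and rules were chosen with earlier results of these data known.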

Additional observations from a re-analysis of the deposited data

Results flagged for a closer look

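In the eye-antennal disc, 10 peaks were placed on XHet, the separately assembled heterochromatic part of X, which lies outside the arm described above. The larval CNS had 3 such peaks, and the other 9 lists 0. Those 9 lists held no peaks outside the 6 arms at all, while the eye-antennal disc list held 455 and the larval CNS list 211, so the counts on XHet compare these 2 samples only.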

How the results depend on the processing

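No paired analysis was possible because each sample is 1 list or 1 column, with no values per replicate, and for the same reason no replicate was left out. Of 162 recomputed values, 107 stayed within the counting interval of the value given (or, for gene counts, within 1.5 times) and 55 moved. The X share of covered bases has no counting interval of its own, so the width of that of the peak share was used for it. A change of sign was looked for only in the differences of X minus autosomal arms between embryo stages. Among those whose interval excluded 0, 0 values changed sign. The order of the 3 embryo stages by X share held in each setting run. That of the late embryo and the appendage discs did not. Leaving out chromosome 4, another arm extent, 2 Mb less at the centromere side, an overlap of 50%, central 200 bp before merging, another pseudocount and no FPKM minimum moved none.

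With the better-scoring 50% of each list, the X share of peaks was 17.2%, 18.4% and 22.5% in the 3 embryo stages, 20.4% (leg), 21.4% (haltere) and 20.6% (wing) for the discs, 17.3% for the CNS, 18.9% for the pharate leg and 18.4% for the pharate haltere. With 9975 peaks from every list it was 16.0%, 17.0% and 22.2% in embryos, 20.2% in the leg and 21.3% in the haltere disc, and 18.8% in the pharate leg. The X share of covered bases, again with the better-scoring 50%, was 15.4%, 16.7% and 22.0% in embryos, 21.2% for the leg and 22.8% for the haltere disc, 18.8% for the CNS, 19.0% for the pharate leg and 19.8% for the pharate haltere. With peaks cut to 200 bp it was 16.1% at 6-8 h, 22.4% for the haltere disc, 20.8% for the eye-antennal disc, 18.7% for the CNS and 19.2% for the pharate haltere. With 10 score classes, X had 3.83 times as many peaks in the highest class as in the lowest at 2-4 h and 1.22 times in the pharate leg, beside 1.21 times at 16-18 h.

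With the better-scoring 50%, the difference of X minus autosomal arms in peaks that disappeared was -3.10, -3.38 and -3.60 points in the order of the report. In new peaks it was 4.55 points at 6-8 h against 2-4 h, and at 16-18 h 13.9 against 6-8 h and 14.8 against 2-4 h. With 11096 peaks from each embryo list, disappearance between 2-4 h and 6-8 h differed by -6.05 points and new peaks at 6-8 h by -0.82. In merged regions of the better-scoring 50% the X share was 15.1% for 2-4 h alone, 15.3% for 6-8 h alone, 17.6% for both without 16-18 h, 18.5% for all embryo stages, 20.8% for all appendage discs, 20.2% for all pharate appendages and 24.6% for all samples. At 1.5-fold, 431 X-linked genes were lower at 6-8 h than at 2-4 h, beside 262 at 2-fold. A looser limit can only add genes, and the share of all genes at 1.5-fold was not computed. The cause of the other changes was not tested.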

Other observations

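Regions with a peak in only 1 of the 11 samples differed in how many lay on X. Over all such regions the X share was 19.6% (19.0 to 20.1, 3681 of 18820). Over all merged regions it was 19.0% (18.6 to 19.3, 9540 of 50319). The X share was 28.3% (26.6 to 30.0; 794 of 2805) for regions of the late embryo alone and 28.3% (25.5 to 31.3; 265 of 935) for those of the eye-antennal disc alone. It was 24.9% (22.1 to 27.9; 221 of 888) for the haltere disc alone. For the CNS alone it was 19.7% (17.8 to 21.7; 326 of 1657), close to that of all regions of a single sample. The leg disc alone had 20.8% (17.6 to 24.2) and the wing disc alone 19.0% (12.3 to 27.3). The pharate haltere alone had 18.3% (17.4 to 19.3) and the pharate wing alone 16.4% (14.5 to 18.4). At the other end stood the embryo at 2-4 h with 11.1% (9.55 to 12.8; 163 of 1466), the embryo at 6-8 h with 12.1% (9.37 to 15.2; 62 of 514) and the pharate leg with 13.9% (12.3 to 15.7; 226 of 1623). The strongest X region of the CNS alone was chrX:12281976-12282424 (score 82.4), and that of the eye-antennal disc alone chrX:10430348-10430703 (49.3). The strongest of the haltere disc alone had a score of 14.9. By number of samples, the X share of merged regions ran between 17.1% and 20.9%.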
